A study of Medicago truncatula with 160 samples.

Results

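The 200 nuclear genes of Medicago truncatula whose transcripts were most raised in nodules of the host line DZA, relative to the line A17, are described here. They were chosen by their median levels in the 2 hosts. CPM, a gene's count scaled to the library's total over the 49615 nuclear gene rows, was computed per library, the median was taken over the 80 libraries of each host, and the 11299 rows with a DZA median of 5 CPM or more were ranked by log2((DZA median + 0.05)/(A17 median + 0.05)). The 200 largest ratios are 1.77% of the ranked rows. Because the DZA to A17 contrast chose these genes, their levels in the 2 hosts are given as a description with no test. The questions that were tested are ones the choice did not use. They are whether the genes differed among rhizobial strains and whether they moved with the ratio of rhizobial to plant counts.

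DZA and A17 are inbred lines of M. truncatula, and A17 is the line from which the reference genome was made. Plants of both lines were grown in a greenhouse in sterilized soil mix and inoculated with 1 of 20 natural strains of the nitrogen-fixing symbiont Sinorhizobium (Ensifer) meliloti, and nodule RNA was sequenced from 4 plants per strain and host, which gave 160 libraries in 40 groups. All groups share the tissue, the treatment with a single strain and the A17 reference to which reads of both hosts were mapped. No uninoculated root or other tissue was analysed here, and each library is 1 plant.

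Nodules of M. truncatula keep a meristem at the tip, and behind it rhizobia enter plant cells, are wrapped in host membrane and differentiate into nitrogen-fixing bacteroids. The plant directs this with transcription factors such as NIN, with secreted nodule cysteine-rich peptides such as NCR169 and with membrane proteins such as SYMREM1. Inbred lines of M. truncatula differ in gene content and in transcript levels, and lines are known to differ in how well they do with a given strain. Genes are named by their A17 r5.0 locus, without the prefix MtrunA17_, in which the digit after Chr is the chromosome and the last digits follow the order along it. The sources used here pair few of these loci with a function: 6 of the 200 carry only the words hypothetical protein in the study's supplementary annotation and 2 carry a Gene Ontology term, namely transmembrane transporter activity for Chr1g0186641 and acid phosphatase activity for Chr8g0375921. None of 84 known symbiosis genes was among the 200. Of those 84, the 62 that reached the DZA minimum had log2 ratios from -1.60 to 0.84 with a median of -0.13, beside a median of -0.10 over all ranked rows.

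Total counts per library ranged from 28474905 to 75617864 and nuclear counts from 2069369 to 56508206, with 1 A17 library (strain 216, plant 3110) below 6233785. Rhizobial rows took 3.68% to 87.5% of a DZA library and 5.35% to 96.3% of an A17 library. The 10 most abundant nuclear genes took between 19.1% and 85.5% of nuclear counts, so plain CPM of all other genes fell and rose with them. Levels per library are therefore given below as scaled CPM, in which the nuclear total was multiplied by edgeR's TMM factor (0.215 to 1.70), while ratios and medians named as those of the ranking are plain CPM. The summed scaled CPM of 9 nodule markers (NCR169, SYMREM1 and others of infected cells) ranged from 121 to 1323 with a median of 713 in DZA, and from 32.6 to 1395 with a median of 867 in A17. Of these 9, VTL8/SEN1 and DNF2 had higher medians in DZA (94.8 and 90.2) than in A17 (72.8 and 70.1), and the others had lower ones. The summed scaled CPM of 3 chlorophyll a-b binding genes, which mark green tissue, did not exceed 8.45 in DZA or 9.69 in A17. The rhizobial genes of 2 libraries went against their labelled strain: over 506 variable genes, the DZA library of strain 182, plant 3406, correlated at 0.99 with strain 176A and at 0.06 with its own, and the A17 library of strain 89, plant 3514, at 0.99 with strain 724B and at -0.15 with its own. In 2 more A17 libraries (strain 724B, plant 3246, and strain 25B, plant 3435) another strain came closest, but only at 0.57 and 0.60. The A17 library of strain 121, plant 3373, was closest to its own strain, but only at 0.58. So were DZA strain 25B, plant 3475, at 0.76, DZA strain 176A, plant 3292, at 0.79 and A17 strain 25B, plant 3300, at 0.79. Strains 282 and 283, and strains 182 and 89, could not be told apart by these genes.

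The ratios were spread over a wide range. On the log2 scale the lower quartile was 2.58, the median 3.39 and the upper quartile 5.04, and 8 genes reached 8 or more, 31 reached 6 or more and 73 reached 4 or more. The largest was 9.44 for Chr2g0300101. At the lower end, Chr8g0344211, Chr2g0309231 and Chr1g0186641 were the last inside with 2.197, 2.196 and 2.185, and Chr6g0470441 and Chr5g0393641 were the first outside with 2.178 and 2.174. The mirror ranking was longer on the other side: of 12250 rows with an A17 median of 5 CPM or more, 639 (5.22%) had a ratio in favour of A17 at least as large as the smallest of the 200, and the largest was 12.2.

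**Figure D1:**
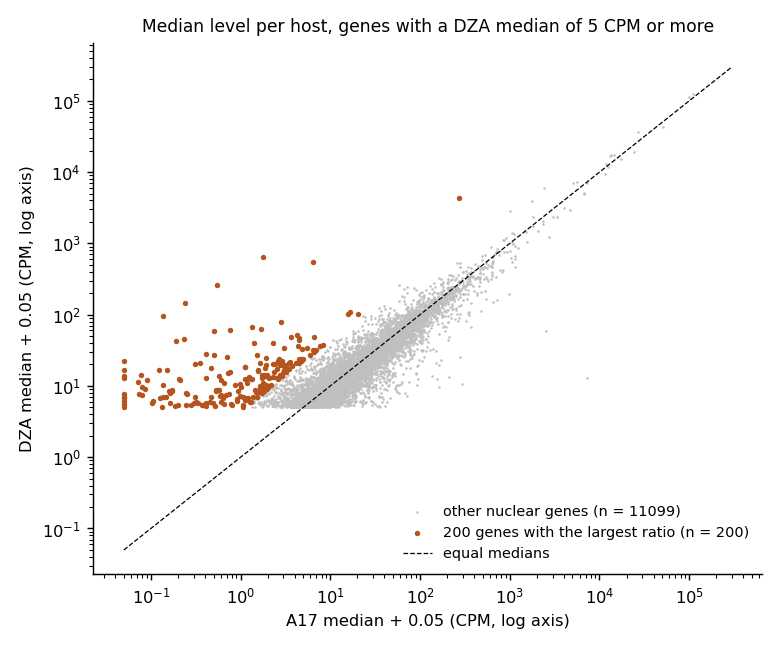
Median CPM plus 0.05 in A17 (x axis) against DZA (y axis), both on log axes, for the 11299 nuclear genes with a DZA median of 5 CPM or more. The 200 chosen genes (orange) lie in the upper left, where A17 medians reach down to 0, and 1 of them, Chr5g0439751, stands at the top with a DZA median of 4357 CPM.

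Most of the genes were of modest abundance in DZA. Their medians in A17 ran from near absent to far higher levels in a few abundant genes described below. In the ranking, 83 had DZA medians under 10 CPM (41.5%, beside 31.9% of all ranked rows), 109 had medians from 10 to 100 and 8 had medians of 100 or more. In A17, 71 had a median under 0.5 scaled CPM, 76 lay from 0.5 to 2 and 53 at 2 or above. No gene was at 0 in all 80 A17 libraries, and 10 were at 0 in more than 40 of them. Summed over the 200 genes, scaled CPM ranged from 5355 to 25815 with a median of 10052 in DZA. In A17 it ranged from 416 to 2411 with a median of 744, so the hosts did not overlap on this scale. On plain CPM they did, with 2452 in the lowest DZA library and 3082 in the highest A17 library. In these bulk samples fewer cells of a type and less RNA per cell cannot be told apart.

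The lowest DZA library lay above the highest A17 library for 42 of the 200 genes. Over all 11299 ranked rows 43 did so, which is 0.381%, and the ranking used this contrast, so nothing is read from the count. On plain CPM it was 14 genes, which were also all there were among the ranked rows (0.124%). For the other genes at least 1 library of each host overlapped, and 56 of the 200 had at least 1 A17 library above the DZA median.

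The 12 genes with the largest ratio were near 0 in nearly every A17 plant. Chr2g0300101 had 20.5, 87.8 and 461 scaled CPM as the lowest, median and highest DZA library, and 0, 0.072 and 1.77 in A17. Chr4g0034451 had 38.6, 242 and 889 in DZA and 0, 0.396 and 18.1 in A17. Chr1g0204891 was the most abundant of the 12, with 186, 627 and 2911 in DZA and 0, 1.396 and 81.8 in A17. In each of these 3 genes every DZA plant was above every A17 plant on scaled CPM, while on plain CPM the hosts overlapped in Chr4g0034451.

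Smaller genes of the same set showed the same separation. Chr2g0332331 was at 0 in 72 of 80 A17 libraries and reached 1.56 scaled CPM there, against 7.62, 21.0 and 50.04 in DZA. Chr4g0019891 was at 0 in 45 A17 libraries and reached 2.66, against 7.27, 14.6 and 34.6 in DZA. Chr3g0135501 (8.94, 35.9 and 74.2 in DZA, at most 3.83 in A17), Chr1g0172511 (14.8, 41.8 and 149, at most 4.91), Chr1g0179271 (3.04, 13.3 and 40.5, at most 1.18) and Chr6g0454871 (2.80, 9.66 and 25.3, at most 0.828) did not overlap either. The other 3 of the 12 did overlap, since some DZA plants were low: Chr2g0304291 fell to 0.698 in DZA, and Chr6g0488421 and Chr7g0221831 fell to 0. On plain CPM the hosts overlapped in Chr3g0135501 as well.

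A single A17 library stood apart in these 12 genes. In the plant 3304 of strain 182, their median level was 8.03% of the DZA median, while the next highest A17 library reached 1.29%, and 9 of the 12 were above 1 scaled CPM. It held the highest A17 value of Chr2g0300101, Chr6g0488421, Chr4g0034451, Chr2g0332331, Chr1g0204891, Chr3g0135501, Chr1g0179271 and Chr6g0454871. Without it all but 2 of the 200 genes kept their place, and 43 had hosts that did not overlap, of 44 among all ranked rows (0.389%). The highest A17 level was then 6.68 in place of 81.8 for Chr1g0204891, 5.20 in place of 18.1 for Chr4g0034451 and 2.80 in place of 17.5 for Chr6g0488421. Whether RNA or reads of a DZA plant were in this library was not tested, so its values may not be levels of an A17 plant.

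**Figure D2:**
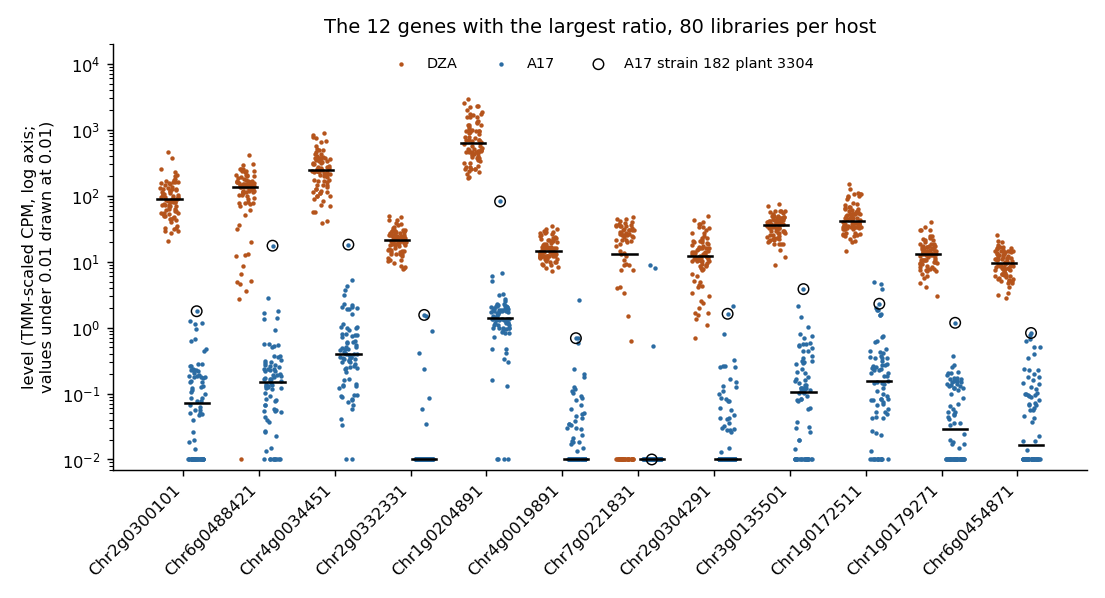
Scaled CPM (log axis, values under 0.01 drawn at 0.01) of the 12 genes with the largest ratio in each of the 80 DZA (orange) and 80 A17 (blue) libraries, with the median as a line. Black rings mark the A17 library of strain 182, plant 3304, which is at 81.8 scaled CPM for Chr1g0204891, and the DZA points of Chr7g0221831 include 26 libraries at 0, 43 above 10 and the others between.

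Abundance in DZA was led by 1 gene. Chr5g0439751 ranged over 1115, 4288 and 17292 scaled CPM in DZA and over 23.2, 242 and 542 in A17, so that it was abundant in both hosts and still did not overlap. It is numbered 12 rows after MtLYK3, a receptor-like kinase of rhizobial entry. Without it the summed level of the other 199 genes ran from 3297 to 11140 in DZA and from 205 to 2137 in A17. Chr1g0204891, described above, came next, and Chr2g0300051 followed with 104, 496 and 1986 in DZA against 0, 4.997 and 337 in A17, and here the hosts overlapped. Among the remaining abundant genes, Chr3g0113641 had 0.473, 98.6 and 685 in DZA and 1.14, 16.7 and 434 in A17, Chr7g0267181 had 28.5, 93.3 and 290 against 5.54, 17.7 and 67.2, and Chr1g0201371 had 3.81, 102 and 339 against 0.715, 14.9 and 102. These 3 overlapped widely, whereas Chr8g0355811 (10.9, 82.8 and 192 in DZA, at most 7.57 in A17) did not on this scale.

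The genes lay on all 8 chromosomes. Chromosome 3 held 38, chromosome 7 held 34, chromosome 1 held 27, chromosome 4 held 26, chromosome 2 held 24, chromosome 6 held 21, chromosome 8 held 16 and chromosome 5 held 14. Per 100 ranked rows this was 3.32 on chromosome 6, 2.36 on both chromosomes 3 and 7, 1.82 on chromosome 2, 1.57 on chromosome 1, 1.33 on chromosome 4, 1.23 on chromosome 8 and 1.09 on chromosome 5. In the order of locus numbers, 34 of the 200 had another of the 200 at most 5 rows away, in 1 run of 4, 4 runs of 3 and 9 pairs. At most 1 row away there were 12 and at most 10 rows away 52. No such count over other ranked rows is given here, so nothing is read from these numbers. The rows directly beside the 200 also leaned to both sides: of 114 such rows outside the set with a median of 5 CPM or more in either host, 17 (14.9%) had a ratio above 1 and 20 (17.5%) below -1, beside 3.36% and 10.8% of the 12788 such rows outside the set. These ratios come from the contrast that chose the genes and are given with no test.

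Runs differed in whether their genes varied together over the DZA plants. In the run of 4 on chromosome 3 (Chr3g0108951, Chr3g0108961, Chr3g0109001 and Chr3g0109031) the pairwise correlations of log2(scaled CPM + 0.5) over 80 DZA libraries were 0.91 to 0.96. Between them lay rows with ranking medians of 0 in both hosts, and Chr3g0109011 was lower in DZA (0.136 CPM) than in A17 (2.78 CPM). On chromosome 2, Chr2g0300051, Chr2g0300101 and Chr2g0300141 spanned 10 rows and correlated at 0.82 to 0.89, while Chr2g0300081 and Chr2g0300121 between them had similar medians in both hosts (14.7 and 16.8 CPM, and 29.8 and 39.99 CPM). On chromosome 3, Chr3g0105551, Chr3g0105601 and Chr3g0105621 correlated at only -0.40 to 0.30. The adjacent pair Chr7g0221821 and Chr7g0221831 correlated at -0.09, and the adjacent pair Chr3g0095331 and Chr3g0095341 at 0.87. The libraries of a pair share depth and scaling, and the reads of similar neighbours may have been split between them by the quantification, which was not tested.

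The genes were more variable among DZA plants than most. The coefficient of variation over 80 DZA libraries had a median of 0.545 (0.197 to 1.90), beside 0.343 over all ranked rows, and 166 of the 200 were above that value. The typical SD among the 4 plants of a strain was 0.64 at the median of the 200 on the log2 scale and the SD of the 20 strain means 0.39, beside 0.43 and 0.25 over all ranked rows. The former was the larger in 94.5% of the 200 and in 96.3% of all ranked rows. None of these comparisons was matched for level, and low medians were more frequent among the 200 than among all ranked rows. In 135 genes no DZA library fell below 10% of the gene's own median, but in 18 genes 10 or more libraries did.

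Chr7g0221831 was the most extreme of these 18. It was at 0 counts in 26 of 80 DZA libraries, in 17 of the 20 strains but never in all 4 plants of one, and above 10 scaled CPM in 43 others. The smallest of the libraries at 0 held 11953770 nuclear counts, and whether depth had a part was not tested. In strain 724B its plants were at 0, 0, 35.4 and 39.2 scaled CPM, in strain 748B at 0, 3.32, 43.8 and 47.9, and in strain 204 at 0, 0, 0 and 13.3. In A17 it was above 0 in 3 libraries only, the highest at 8.94. Over 22975 nuclear rows with more than 3 scaled CPM in some DZA library, the closest in pattern was Chr3g0110611 (r = 0.73) and the most opposed was Chr3g0131821 (r = -0.72), both chosen after their values were seen. Chr3g0131821 had a median of 40.5 scaled CPM in the 26 libraries at 0 and of 21.0 in the 43 libraries above 10. Rhizobial counts took a median of 35.4% in the libraries at 0 and of 27.1% in the others.

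Of the other 17, 16 went up and down together over the plants. They lie on 7 chromosomes and include the run of 4 on chromosome 3, Chr3g0113641 and Chr8g0344211, and they were grouped after their values were seen, so no test is given. Their 120 pairwise correlations had a median of 0.90 (0.71 to 0.98) over the 80 DZA libraries and of 0.89 (0.71 to 0.96) over the 80 A17 libraries, where between 1 and 25 libraries per gene exceeded the DZA median. At least 8 of the 16 were under 10% of their medians in the same 16 DZA libraries, which came from 11 strains, and none was in 59 libraries. Chr3g0113641 shows the range, with 2.01, 58.0, 89.5 and 183 scaled CPM in the 4 plants of strain 121. Rhizobial counts took 9.85% to 75.4% (median 37.6%) of the 16 low libraries and 3.68% to 87.5% (median 29.0%) of the other 64. The summed nodule markers ran from 372 to 1071 scaled CPM (median 634) in the low libraries and from 121 to 1323 (median 728) in the others, so both measures overlapped and their part in the pattern was not tested. Chr6g0488421, the last of the 18, did not follow the group (r = -0.09 with its mean) and neither did Chr7g0221831 (r = 0.22).

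**Figure D3:**
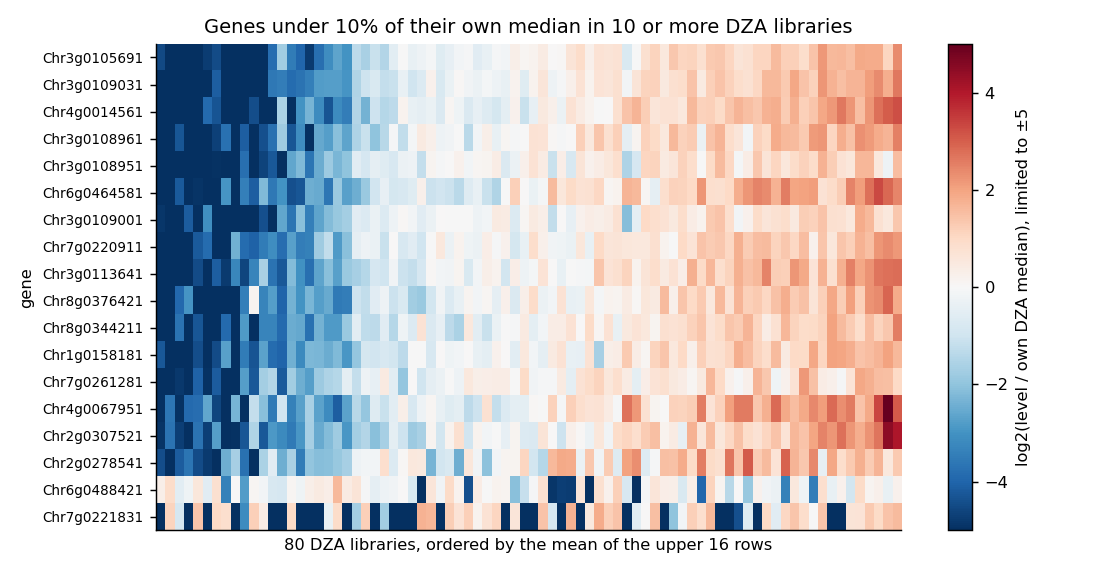
Log2 ratio of each library's level to the gene's own DZA median (colour, limited to ±5) for the 18 genes that fell under 10% of their median in 10 or more DZA libraries. Columns are the 80 DZA libraries, ordered by the mean of the upper 16 rows, which go dark blue together at the left, while Chr6g0488421 and Chr7g0221831 in the lower 2 rows follow another order.

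Whether the genes depend on the rhizobial strain was asked within DZA, with edgeR's quasi-likelihood F test over 20 strains. Of all 33928 nuclear genes tested, 1361 passed a Benjamini-Hochberg adjusted p of 0.05, which is 4.01%. Of the 200, all were tested and 16 (8%) passed. The 200 all reached a DZA median of 5 CPM, which many of the 33928 did not. The share among genes of like level is not given here, so nothing is read from the difference. The ratio of the highest to the lowest strain mean was 5.07 at the median of these 16 (2.33 to 18.7), beside 2.90 over the members of the whole set with a strain mean above 0. Strains 746B and 748B each held the lowest mean in 4 of the 16, and strain 89 held the highest in 3. DESeq2 called 28 of the 200, and with 1 plant per strain left out edgeR called 8 to 11.

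Chr5g0445671 was the most strain-dependent of them. Its 80 DZA libraries ranged over 1.44, 11.03 and 90.9 scaled CPM. The 4 plants of strain 89 were at 18.5, 34.5, 35.2 and 90.9, those of strain 141 at 15.6, 28.4, 31.9 and 60.9, and those of strain 182 at 4.21, 24.3, 45.1 and 51.8. In strain 199 the plants were at 2.96, 3.57, 4.48 and 9.80, and in strain 204 at 4.83, 5.36, 5.999 and 6.45, so every plant of strains 89 and 141 lay above every plant of these. Mean levels were 44.8 ± 31.7 (SD, n = 4 plants) in strain 89 and 5.20 ± 3.13 (SD, n = 4 plants) in strain 199. The edgeR adjusted p was 1.1e-07, and it was 1.8e-09 without the library of strain 182, plant 3406. That library is the one at 4.21, under the other plants of strain 182 (24.3 to 51.8) and near those of strain 176A (4.76 to 10.1), the strain its rhizobial genes matched.

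The same gene differed among strains in A17, at lower levels. The edgeR adjusted p in A17 was 7.4e-09. The plants of strain 141 were at 5.49, 5.602, 14.0 and 20.1 scaled CPM, those of strain 182 at 6.89, 8.28, 10.2 and 10.5 and those of strain 89 at 1.95, 5.02, 6.78 and 13.4. No plant of the 17 other strains exceeded 4.73. The plant of strain 89 at 1.95 is the library whose rhizobial genes matched strain 724B, where plants ran from 1.46 to 3.12. The 3 strains with the highest means were thus the same in both hosts, although 182 and 89 could not be told apart by rhizobial genes, and whether strain differences were equal in the 2 hosts was not tested.

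**Figure D4:**
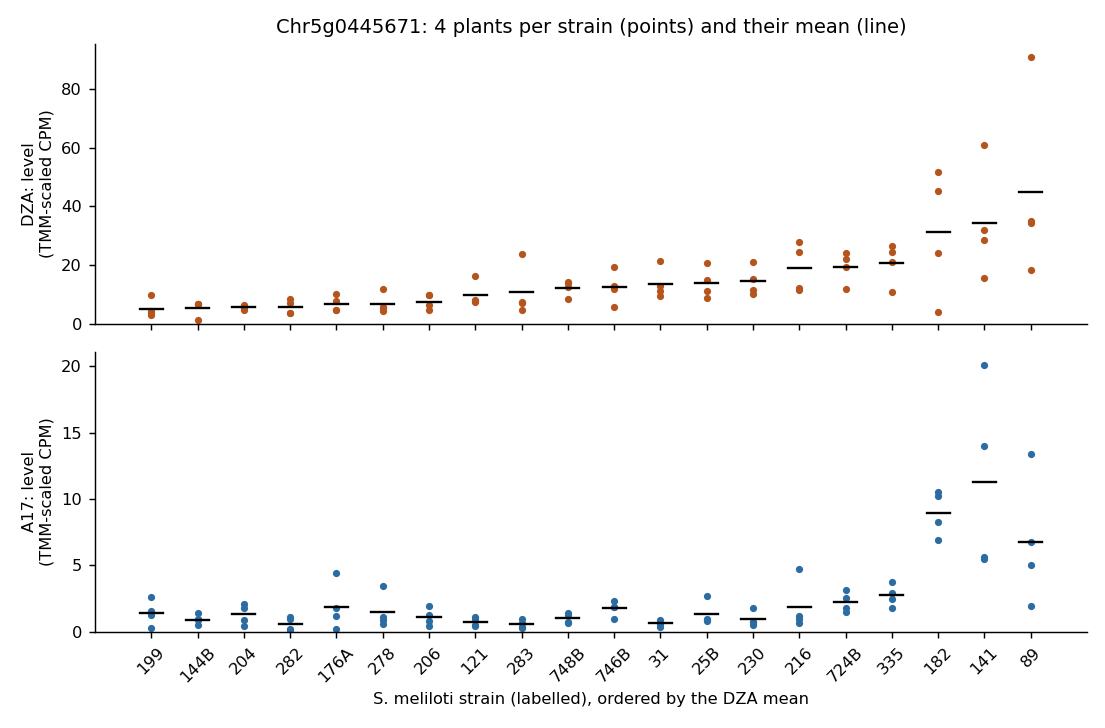
Scaled CPM of Chr5g0445671 in the 4 plants (points) and their mean (line) for each labelled strain, in DZA (upper panel) and A17 (lower panel, another scale), ordered by the DZA mean. Strains 182, 141 and 89 are highest in both hosts, with means of 31.4, 34.2 and 44.8 in DZA and of 8.98, 11.3 and 6.80 in A17.

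Other strain-dependent genes were low with particular strains. Chr3g0136141 ranged over 1.45, 12.6 and 58.3 scaled CPM, and was at 2.48, 2.98, 4.07 and 4.21 in the plants of strain 748B and at 1.61, 3.64, 3.84 and 5.73 in those of strain 746B. In strain 278 it was at 12.7, 19.6, 20.4 and 58.3, above all 8 of those plants (edgeR adjusted p = 5.0e-05). Chr1g0186641, the transporter-annotated gene at the lower edge of the set, had 4.09, 5.28, 6.34 and 10.5 in strain 748B, 3.75, 5.21, 5.42 and 11.4 in strain 746B and 36.0, 49.6, 50.9 and 54.4 in strain 204 (edgeR adjusted p = 2.5e-05). Chr8g0375921, annotated with acid phosphatase activity, had means of 2.88 in strain 746B and 11.4 in strain 206 (edgeR adjusted p = 7.5e-05). Of the 12 genes with the largest ratio, Chr2g0304291 passed with means of 2.56 in strain 748B and 25.1 in strain 278 (edgeR adjusted p = 1.9e-04), and Chr1g0172511 with means of 32.8 in strain 121 and 104 in strain 748B (edgeR adjusted p = 0.010). Of the 10 most abundant genes none passed.

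The remaining 10 of the 16 passed with edgeR adjusted p from 7.4e-05 to 0.043, and no strain was the highest in most of them. Strain 89 held the highest mean of Chr1g0200091 (38.6 scaled CPM, against 10.5 in strain 746B, the lowest) and of Chr5g0405001 (30.7 against 7.99 in strain 31). In both, 1 plant of strain 89 stood far above the others and raised the mean. For Chr1g0200091 it was at 74.1, against 19.9 to 30.4. For Chr5g0405001 it was at 69.4, against 16.1 to 20.2, and the mean of strain 141 was 29.1. Strain 144B held the highest mean of Chr1g0180331 (40.3 against 12.04 in strain 335) and of Chr5g0430071 (9.27 against 2.83 in strain 746B), and the lowest of Chr7g0217461 (1.96 against 31.3 in strain 335) and of Chr2g0332441 (7.85 against 23.8 in strain 724B). Chr4g0029921 was highest in strain 204 (11.4) and lowest in strain 25B (1.84). Chr7g0227301 was highest in strain 746B (11.02) and lowest in strain 206 (4.72). Chr6g0468601 was highest in strain 176A (38.5) and lowest in strain 748B (3.67). Chr6g0467621 had the widest range, from 3.65 in strain 748B to 68.3 in strain 141, where 1 plant was at 248 and carried most of the mean.

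Summed over the set, strains overlapped. Means of the 4 plants ran from 8012 ± 741 (SD, n = 4 plants) scaled CPM in strain 748B to 14385 ± 7628 (SD, n = 4 plants) in strain 89, and the range of plants within strain 89 (10293 to 25815) was wider than the distance between most strain means. The plant at 25815 had a TMM factor of 0.218 and was the lowest of strain 89 on plain CPM (5615). On that scale strain 89 did not have the highest mean, nor strain 748B the lowest.

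In A17, 190 of the 200 had enough counts to be tested, and 4 passed the F test of strain (2.11%), beside 552 of 34548 nuclear genes (1.60%). Besides Chr5g0445671 these were Chr4g0029961, Chr1g0204891 and Chr6g0488421. Chr4g0029961 had plants at 3.02, 7.22, 10.2 and 13.8 scaled CPM in strain 182 and at 0.797, 2.34, 12.6 and 15.4 in strain 141, and at most 0.773 in strain 204 (edgeR adjusted p = 6.5e-04, and 0.060 without replicate 1). Chr1g0204891 and Chr6g0488421 passed with edgeR adjusted p of 8.4e-05 and 0.032. Both rested on the A17 library of strain 182, plant 3304, and were at an adjusted p of 1 without it: Chr1g0204891 was at 81.8 in that plant and at 0.718, 1.38 and 1.45 in the others of strain 182.

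How the genes moved with the rhizobial share of counts was asked with the log2 ratio of S. meliloti to M. truncatula counts. It ranged from -4.71 to 2.81 in DZA and spanned 3.39 units between the plants of a typical strain. Whether this ratio, taken from mRNA libraries, follows the amount of rhizobia in the nodule was not tested. The slope on this ratio was tested in edgeR with strain in the model. Of all 33928 genes, 9887 (29.1%) rose and 10570 (31.2%) fell at an adjusted p of 0.05, together 60.3%. Of the 200, 35 (17.5%) rose and 77 (38.5%) fell, together 112 (56.0%). Here too the shares over all genes include many of lower level than the 200. The median slope was -0.09 over the 200 and -0.01 over all genes. Under another scaling, RLE size factors, 63 rose and 46 fell of the 200, as 41.0% and 17.4% of all genes did, and the medians moved to 0.01 and 0.09. A change of scaling shifts the slopes of all genes by a similar amount, so the nearly unchanged distance between the 2 medians adds no support. The split between rising and falling genes did change. The ratio shares its plant counts with the levels being tested.

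The rising genes with the smallest p differed in level and in slope. Chr1g0171971 ranged over 4.34, 13.7 and 113 scaled CPM in DZA, with a slope of 0.60 ± 0.05 (SE, edgeR adjusted p = 9.9e-17), a factor of 1.52 for each doubling of the ratio. Chr1g0153351 ranged over 5.62, 19.4 and 163, with a slope of 0.58 ± 0.04 (SE, edgeR adjusted p = 9.7e-17). Chr8g0392231 changed less, with 3.85, 7.44 and 20.4 and a slope of 0.25 ± 0.03 (SE, edgeR adjusted p = 6.7e-11). The steepest rise that passed was that of Chr4g0059391, named after its values were seen, with a slope of 0.72 ± 0.16 (SE, edgeR adjusted p = 1.1e-04). Of the 10 most abundant genes 2 rose and 5 fell, beside 29.1% and 31.2% of all genes. With RLE size factors 2 of the 10 rose and 4 fell, and the shares of all genes under that scaling are given above. Chr1g0204891 rose with a slope of 0.47 ± 0.06 (SE, edgeR adjusted p = 4.9e-09), as did Chr5g0439751, while Chr2g0300051 fell with a slope of -0.38 ± 0.05 (SE, edgeR adjusted p = 8.4e-09).

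The falling genes with the smallest p had medians in the same range. Chr4g0021861 ranged over 2.82, 11.7 and 59.8 scaled CPM, with a slope of -0.63 ± 0.05 (SE, edgeR adjusted p = 3.4e-15), a factor of 0.645 for each doubling. Chr6g0488611 ranged over 4.67, 18.0 and 37.2, with a slope of -0.37 ± 0.03 (SE, edgeR adjusted p = 6.6e-15). Chr6g0468601 ranged over 0.257, 13.3 and 67.0, with a slope of -0.58 ± 0.05 (SE, edgeR adjusted p = 1.4e-14), and it also differed among strains. The lowest slope that passed was -0.75 for Chr6g0488421. Of the 12 genes with the largest ratio 6 fell and 2 rose, beside 31.2% and 29.1% of all genes. With RLE size factors 5 of the 12 fell and 5 rose, beside 17.4% and 41.0%. Of the 42 genes whose hosts did not overlap 17 fell and 11 rose, beside 31.2% and 29.1% of all genes, but 8 fell and 21 rose with RLE size factors, beside 17.4% and 41.0%. Of the 16 genes that differed among strains 6 had a slope that passed, beside 60.3% of all genes, so nothing is read from this count.

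**Figure D5:**
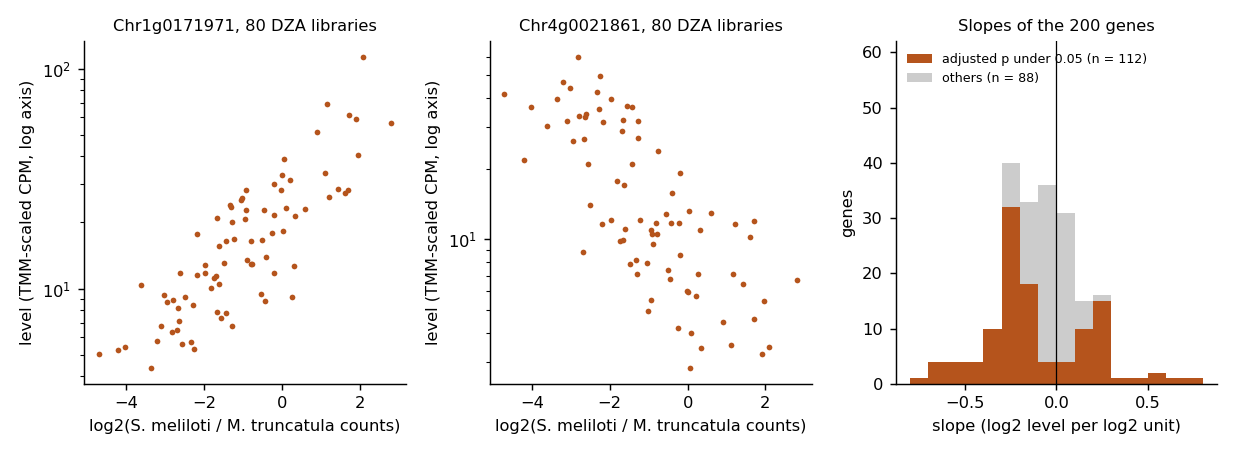
Scaled CPM (log axis) of Chr1g0171971 and Chr4g0021861 in the 80 DZA libraries against the log2 ratio of S. meliloti to M. truncatula counts, and the slopes of all 200 genes within strains. The first gene rises and the second falls along the ratio, and slopes past the threshold (orange, 112 genes) lie on both sides of 0, with more on the negative side under this scaling and more on the positive side (63 against 46) with RLE size factors.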

How the data were processed

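Nodule RNA of 160 plants (stranded mRNA libraries, paired reads, 2 hosts, 20 strains, 4 plants each) had been quantified by the authors with Salmon 1.4.0 on reference transcripts of the plant (A17 r5.0) and of a S. meliloti strain, followed by tximport. The deposited values are expected counts, which the authors neither rounded nor normalized. Salmon divides reads among similar transcripts, so paralogs and near-identical copies are uncertain, and DZA reads were matched to A17 sequence. Groups came from the host, strain and plant in the labels. The plants are separate, and replicate numbers follow accession order only.

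CPM over 49615 nuclear rows set the ranking. Levels per library used the same rows with TMM factors over all 160 libraries (edgeR 4.0.16, R 4.3.3). Models used rounded values. A gene was tested where 4 or more libraries of the host held 10 or more counts, by edgeR's quasi-likelihood F test, with Benjamini-Hochberg adjustment over all of them at 0.05. DESeq2 1.42.0, limma-voom (limma 3.58.1), RLE size factors, no filter, all M. truncatula rows, and leaving out replicates or libraries that stood apart were alternatives. The fits were tested on simulated data. There both strain tests made more false calls over all genes than the threshold allows, mostly among the most variable genes (a biological coefficient of variation of 2 or more, a limit set after seeing this), and the slope test made slightly more. The fits were left as they were, and none of the 200 genes called for strain was that variable. Plain CPM had been planned as the main scale for levels, and scaled CPM took its place after the data were seen, because a few genes took most of the nuclear counts of some libraries. The count of genes whose hosts do not overlap, and leaving out the A17 plants 3304 (strain 182), 3110 (strain 216) and 3514 (strain 89), were also chosen after seeing the data, as were the counts of rising and falling genes in subsets under RLE size factors. Standard errors of slopes are the slope over the square root of F. The members and lists were chosen with earlier results of these data known.

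Named genes were the 12 with the largest ratio, the 10 with the highest DZA median, ranks 198 to 202, the 3 with the smallest p per test and direction, and the 3 longest runs, ties in order of locus number. Genes outside this rule were named after their values were seen. Lists defined by product names (NCR peptides, resistance genes, kinases, F-box and others) could not be applied to these locus names and were not used here, and no sequences are printed for the same reason.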

Additional observations from a re-analysis of the deposited data

Results flagged for a closer look

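Of 40 groups of 4 plants, the log2 summed level of the 200 genes had a plant far from the others, by Dixon's criterion, in 4, beside about 1 in 20 expected by chance. The DZA plant 3452 of strain 89 was at 25815 scaled CPM and the others of its group at 10293 to 11068. Chr5g0439751, at 17292 in this plant and 3372 to 6133 in the others, made up 82.1% of the distance, and the TMM factor of the library (0.218) was the lowest in DZA. On plain CPM this plant was the lowest of its group, at 5615 against 8886 to 15392. The DZA plant 3285 of strain 199 was at 6753 and the others at 10493 to 11287, with 55.8% of the distance from the same gene. On plain CPM plant 3285 was at 7882 and was not the lowest, as plant 3364 was at 7623. The A17 plant 3313 of strain 199 was at 1707 and the others at 750 to 829. The A17 plant 3322 of strain 335 was at 1658 and the others at 459 to 547. In both of these A17 plants Chr3g0113641 (420 and 120 scaled CPM) and Chr6g0464581 (138 and 291) were among the genes that made up most of the distance, and both belong to the 16 genes that varied together. The causes were not tested.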

How the results depend on the processing

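Of the 200 genes, 157 kept their place with means in place of medians, 184 on scaled CPM, 189 with a pseudocount of 1 CPM and 183 to 191 without 1 replicate. For strain in DZA, DESeq2 called 28 of the 200 and 2722 of all genes, against 16 and 1361 by edgeR, and leaving out 1 replicate gave 8 to 11 and 564 to 1252. For strain in A17, DESeq2 called 13 of the 200 and 1189 of all genes, limma-voom 2 and 90, and RLE size factors 839 of all genes, against 4 and 552. Leaving out 1 replicate gave 2 to 4 and 210 to 519, and leaving out strain 182, plant 3304, gave 2 of the 200. With RLE size factors 63 of the 200 rose with the rhizobial ratio and 46 fell, against 35 and 77. The slope of Chr3g0136141 was -0.0112 with no strain term, against 0.125. Neighbours numbered 12 at the next row and 52 within 10 rows, against 34 within 5. On plain CPM 14 genes had hosts that did not overlap, against 42. For these the cause was not tested. The other alternatives left every count within 1.5 times. No paired analysis was possible because the replicate numbers follow accession order and pair no plants. Genes with under 10 counts in A17 were limited by depth there.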
